A study of Mus musculus with 2 samples.

Results

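Neurod4-positive precursors were selected from single-cell RNA sequencing of the mouse retina at postnatal day 7, by the unique molecular identifiers (UMIs, which count single captured transcripts) of a few genes. A cell was a member when it had at least 1000 UMIs outside the mitochondrial genes, at least 2 of Neurod4 and at least 1 of Otx2. It also had to carry fewer than 2 of the neurogenic genes Atoh7, Olig2, Dll4, Tfap2d and Mybl1, fewer than 2 of the bipolar genes Grm6, Trpm1, Isl1, Grik1 and Gsg1, fewer than 2 of the immature bipolar genes Pcp2, St14, Insm2, Adcy2 and Inhbb, and fewer than 3 UMIs of the rod factors Nrl and Nr2e3 together. Members numbered 465 of the 6330 cells that were deep enough, and 7103 cells were read in all. The control library gave 241 members and the Mettl3-CKO library 224. Because measured values chose these cells, the levels of the rule's own genes are given as a description only.

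Each group was 1 library that pooled 2 retinas, all from 1 litter, so no replicate exists and no test between the groups was possible. Mettl3-CKO retinas carried Six3-Cre together with floxed alleles of Mettl3, the methyltransferase that places N6-methyladenosine (m6A), a base modification, on messenger RNAs. Controls were littermates whose full genotype was not given in the sources used here. Six3-Cre acts in the progenitors of the neural retina, and the study showed loss of the protein in the central retina while whole retinas were dissociated with papain, so a Mettl3-CKO library can hold cells that kept the gene. The 3′ end reads cannot settle this cell by cell. Mettl3 (chromosome 14, 52294841 to 52305128, build GRCm38) had 59 UMIs in control and 62 in Mettl3-CKO members, 37.4 and 44.3 CPM (UMIs of a gene per 1000000 UMIs of the same cells), a log2 ratio of 0.24 (−0.29 to 0.78). A transcript that lost an internal exon is still counted at its 3′ end, so this level checks nothing about the deletion. All intervals are at 95% and cover counting error only.

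During postnatal retinal development, progenitors leave the cell cycle and pass through a short precursor state before they become rods or bipolar cells. Otx2 is a homeodomain factor that both fates need, and Neurod4 is a basic helix-loop-helix factor of neuronal differentiation that bipolar genesis uses together with other factors of its family. Prdm1 (also called Blimp1) holds Otx2-positive cells to the photoreceptor fate, and cells that lose it can turn to the bipolar fate. Prdm1 did not enter the rule.

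The sex of the pups differed between the libraries. Control members had 0 UMIs of Xist, which cells with a silenced X chromosome transcribe, and 439 UMIs of 4 Y-linked genes. Mettl3-CKO members had 2956 Xist UMIs in 142 cells (63.4%), while 82 cells had none, and the Y-linked genes gave 122 UMIs in those 82 cells against 13 in the 142. The Mettl3-CKO pool therefore held cells with and without Xist in a single library, and values for each are given beside several results. Members with Xist have no counterpart in the control library, so sex and genotype cannot be told apart for them. The libraries shared 5 cell barcodes. Members had medians of 6338 UMIs (1001 to 23598) in the control and 6277 (1017 to 16769) in the Mettl3-CKO library, and their median mitochondrial share was 4.79 and 3.64%.

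The members were first described by marker genes. The 13 rod genes listed summed to 722 and 550 CPM in control and Mettl3-CKO members, against 9906 and 9114 CPM in all other deep cells. The rule left out cells with 3 or more UMIs of Nrl and Nr2e3, so low rod transcripts, Sag included, are no independent check of the label. Neurod4- and Otx2-positive cells that failed only this limit held 10680 and 13160 CPM of the rod list. The 8 amacrine genes listed did not set members apart, at 108 and 172 CPM against 136 and 126.5 CPM. Sag, which encodes rod arrestin, stood at 33.6 and 32.8 CPM in control and Mettl3-CKO members, against 1484 and 1180 CPM in all other deep cells. A Sag UMI was seen in 17.0% (12.5 to 22.4%) of control and 18.75% (13.9 to 24.5%) of Mettl3-CKO members, below the 46.7% and 48.6% in microglia-like cells, which do not make it, so these counts were read as background. Those reference cells had medians of 6168.5 and 12660 UMIs. Trpm1, the channel of mature ON bipolar cells, Gad1, a GABA synthesis enzyme of amacrine cells, and Opn1mw, a cone opsin, had no UMI in members of either library, which allows a share of cells with a UMI of up to 1.245 and 1.339%. Trpm1 was itself part of the rule, and Gad1 stood at only 0.525 and 0.436 CPM in all other deep cells. The early photoreceptor and bipolar factor Neurod1 was at 3070 CPM (2984 to 3158) in control and 3019 (2928 to 3111) in Mettl3-CKO members, above the 2521 and 2450 CPM of the other cells. Crx, the photoreceptor homeodomain factor, was at 430 and 429 CPM against 544 and 509. Markers of microglia were scarce but uneven, with 56 UMIs over 8 genes in control and 139 in Mettl3-CKO members. Of the Mettl3-CKO count, 1 cell held all 20 UMIs of Tyrobp, and Csf1r had 0 and 3 UMIs. The part of such cells in the ratios below was not tested.

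Beside the rule's genes, a few genes stood far higher in members than in all other deep cells. Hsd11b2, an enzyme that inactivates glucocorticoids, was 7.64-fold higher in control members than in the other control cells and 5.65-fold higher in their Mettl3-CKO counterparts. Lhx4, a LIM homeodomain factor of bipolar and cone cells, was 3.87-fold above the rest in control and 3.88-fold in Mettl3-CKO, at 549 and 601 CPM. Bhlhe22, a factor of OFF bipolar and some amacrine cells, was 4.84-fold and 4.51-fold higher, and Tubb3, the neuronal beta-tubulin, 4.001-fold and 3.88-fold. Rimkla, Rnf182, Clvs1 and Hs3st1 were each at least 3.67-fold higher in both libraries. The nearest classes of cell, described next, were not all this far below the members. Rnf182 stood at 309 CPM in control cells past the bipolar limit against 249 in members. Hs3st1 stood at 145 and 112 CPM past the neurogenic limit against 101 and 73.5 in members. Tubb3 was at 769 and 781.5 CPM past the neurogenic limit and 805 and 637 past the bipolar limit, against 952 and 1026 in members. Bhlhe22 was at 280 and 243 CPM past the neurogenic limit, against 326 and 269 in members. Past the rod limit both were lower, Tubb3 at 310 and 365 CPM and Bhlhe22 at 55.0 and 51.4. Hsd11b2 was at 37.5 and 68.2 CPM past the bipolar limit, against 67.8 and 63.5 in members. Sox4, a factor of newborn neurons, had 6178 and 5812 CPM against 2298 and 2109 in the rest, and Gadd45g, which marks cells leaving the cycle, 1520 and 1429 CPM against 538.5 and 562. These ratios describe cells that the rule picked and carry no test.

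Members were next compared with their neighbours in the rule, which were Neurod4- and Otx2-positive cells that failed a single limit of the rule, either the neurogenic, the rod or the bipolar one. Hes6, which acts downstream of proneural factors, stood at 971 and 1069 CPM in cells past the neurogenic limit, at 763 and 737 CPM in members, and at 655 and 624 CPM in cells past the bipolar limit (control first, Mettl3-CKO second). Lhx4 stood at 299 and 376 CPM past the neurogenic limit, at 549 and 601 in members, at 616 and 628 past the bipolar limit and at 181 and 177 past the rod limit. Sox4 was highest in members, at 6178 and 5812 CPM against 5914 and 5458 past the neurogenic and 5890 and 4938 past the bipolar limit, so the genes did not place the members in 1 order. Crx was highest past the rod limit, at 809 and 757 CPM, where Sag was already at 1395 and 1605 CPM. Mki67, a gene of dividing cells, had a UMI in 7 of 241 control and 10 of 224 Mettl3-CKO members at 32.9 and 27.1 CPM. Past the neurogenic limit it stood at 1.77 and 106 CPM, past the rod limit at 2.43 and 27.9, past the bipolar limit at 6.38 and 7.25, and in all other cells at 60.4 and 139.

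**Figure D1:**
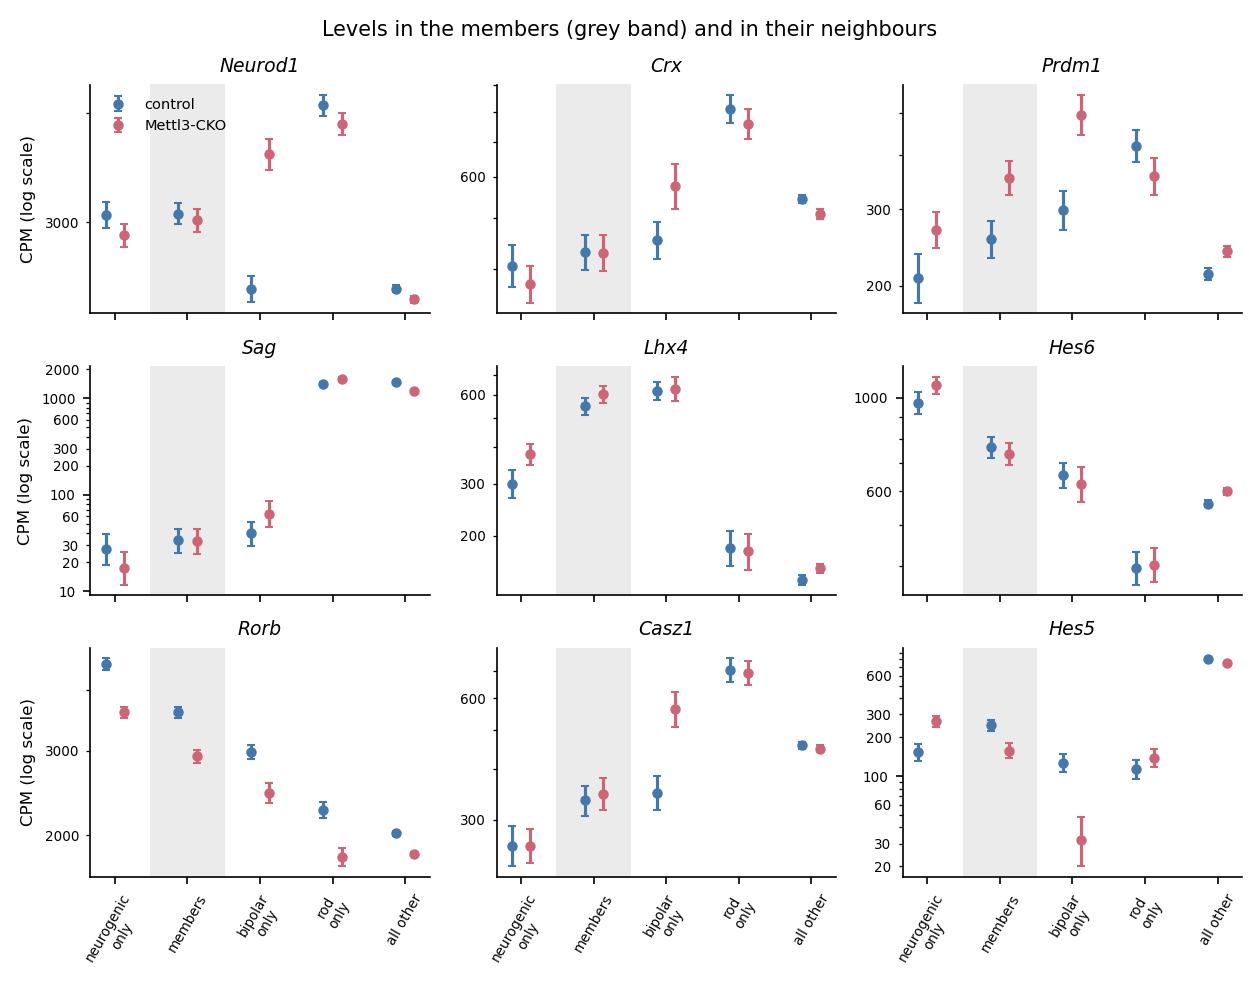
Levels of 9 genes in CPM (log scale) in members (grey band), in 3 kinds of neighbour and in all other cells with at least 1000 UMIs; points are summed levels of 1 library and bars are 95% counting intervals. Hes6 is lower and Lhx4 is higher in the members than in the neurogenic neighbours, Sag is high past the rod limit and in the other cells, and Prdm1 is higher in Mettl3-CKO than in control members.

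The number of members differed little between the libraries. They made up 6.81% (5.998 to 7.69%) of deep control cells and 8.03% (7.05 to 9.10%) of deep Mettl3-CKO cells, a ratio of 1.18 (0.991 to 1.41) whose interval included 1. With every cell thinned to 3000 UMIs, and shallower cells (1107 and 663 of those read) set aside, the shares were 12.3% and 13.4% and the ratio 1.09 (0.948 to 1.26). Among Mettl3-CKO cells, members were 8.59% (7.28 to 10.1%) of those with Xist and 7.22% (5.78 to 8.88%) of those without. The Mettl3-CKO share also moved within the file, from 9.24% in the first to 6.82% in the second part of the barcodes, against 6.99 and 6.63% in the control library.

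Cells positive for Neurod4 and Otx2, before the other limits, were more frequent in the Mettl3-CKO library, with 1203 of 2789 (43.1%, 41.3 to 45.0%) against 1263 of 3541 (35.7%, 34.1 to 37.3%), a ratio of 1.21 (1.14 to 1.29), and 1.12 (1.04 to 1.20) after thinning. Of these cells, 19.1% were members in control and 18.6% in Mettl3-CKO, with 0.976 (0.828 to 1.15) as their ratio. On either side of the members the balance was different. Cells that failed only the neurogenic limit were 10.7% (9.04 to 12.5%) in control and 16.1% (14.1 to 18.3%) in Mettl3-CKO, a ratio of 1.51 (1.23 to 1.85), and 1.53 (1.15 to 2.04) after thinning. Cells that failed only the bipolar limits were 14.2% (12.3 to 16.2%) and 8.81% (7.27 to 10.6%), a ratio of 0.622 (0.496 to 0.780), but after thinning the ratio was 0.829 (0.647 to 1.06). Cells past only the rod limit had a ratio of 0.834 (0.697 to 0.996), and 0.964 (0.812 to 1.14) after thinning. The neurogenic difference thus kept its size at equal depth, while the bipolar and rod differences were not detectable there. As shares of all deep cells at full depth, the ratios were 1.825 (1.47 to 2.26) for the neurogenic and 0.752 (0.594 to 0.951) for the bipolar class. The rod class was 6.44% of deep control and 6.49% of deep Mettl3-CKO cells, a ratio of 1.01 (0.835 to 1.22). The bipolar class pools both bipolar limits and differed in make-up, with the bipolar genes of the rule at 1146 and 286 CPM and the immature bipolar genes at 401 and 707 CPM in control and Mettl3-CKO.

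**Figure D2:**
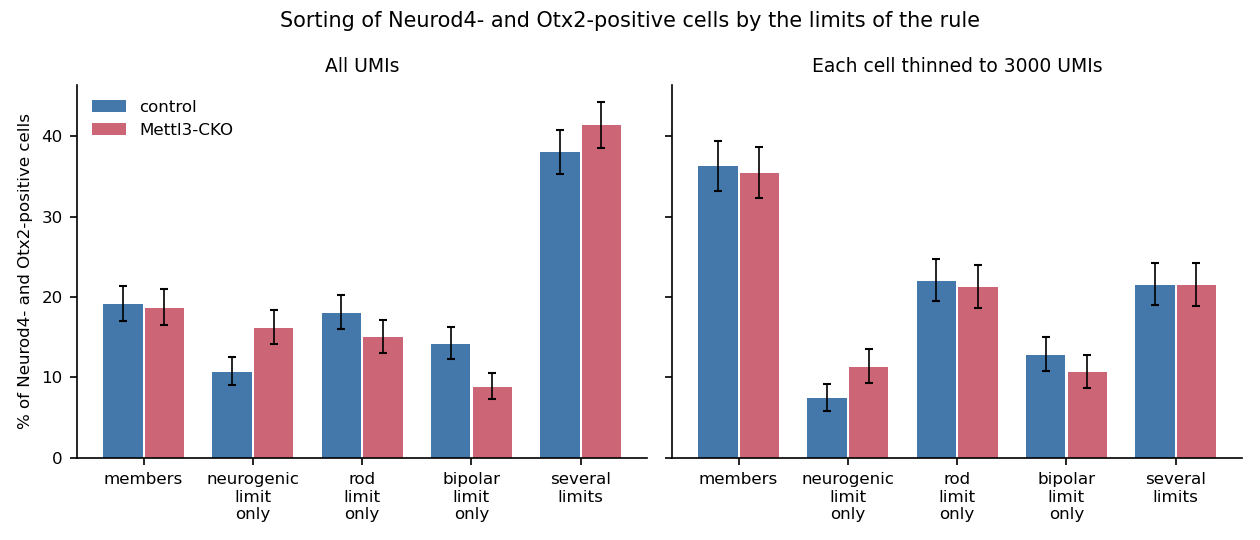
Share of Neurod4- and Otx2-positive cells (%) that were members or that failed only the neurogenic, rod or bipolar limit or several limits, at full depth (left) and with each cell thinned to 3000 UMIs (right). Bars are shares of 1 library with exact 95% binomial intervals; members stand at 19.1 and 18.6%, the neurogenic class at 10.7 and 16.1%.

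Cells lay close to the limits on both sides. Of cells that met every other condition, 229 control and 185 Mettl3-CKO cells had no Neurod4 UMI, 40 and 37 had 1, 22 and 22 had 2, and 205 and 195 had over 3. Members held 2 to 50 Neurod4 UMIs in the control library (median 13) and 2 to 76 in the Mettl3-CKO library (median 12). Just inside the rod limit, 31 control and 27 Mettl3-CKO members had 2 UMIs of Nrl and Nr2e3, and just outside it 17 and 12 cells had 3. No gap separated members from the cells beyond either limit.

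The members held cells with and without a detected Prdm1 UMI, and a cell without one may still carry the transcript. In what follows, without Prdm1 means without such a UMI. A Prdm1 UMI was present in 143 of 241 control members (59.3%, 52.8 to 65.6%) and in 154 of 224 Mettl3-CKO members (68.8%, 62.2 to 74.8%). At 3000 UMIs per cell the shares were 48.9% and 56.9%. Microglia-like cells had a Prdm1 UMI in 33.3 and 29.7%, below the members of both libraries. Those cells were chosen by few UMIs, and of 15 cells in each library with at least 20 UMIs of the complement genes C1qa, C1qb and C1qc, a limit set after the data were seen, 5 in control and 0 in Mettl3-CKO had Prdm1 (medians of 9932 and 14813 UMIs). Members with Prdm1 had medians of 6291 and 6144 UMIs and those without it 6820 and 6614.5, so depth differed little along this split.

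Cells with Prdm1 had more of several photoreceptor factors, but not of all. Neurod1 stood at 3745 CPM in control and 3544 in Mettl3-CKO members with Prdm1, against 2062 and 1893 CPM in those without it. Crx was at 510.5 and 501 against 310 and 274 CPM, and Casz1, a factor of photoreceptor differentiation, at 414 and 450 against 217 and 128 CPM. Lhx4 ran the other way, with 477 and 576 CPM with Prdm1 and 656 and 655 without it. Rorb, a nuclear receptor, changed direction between the libraries, with 3704 and 2847 CPM with Prdm1 and 3445 and 3069 without it. Nr2e3, a gene of the rule, stood at 31.7 and 17.8 against 30.0 and 29.2 CPM. Sag did not divide the members, at 32.8 and 35.6 against 34.8 and 26.9 CPM.

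Other genes were taken for the size of their difference in these same cells, so their direction is a description. With Prdm1 went Robo2, an axon guidance receptor (350 and 311 against 112 and 87.5 CPM), Chgb, a granin of secretory granules (329 and 336 against 123 and 60.6 CPM), and Lmo1, a LIM-only cofactor (125 and 135 against 39.5 and 38.1 CPM). Mak, a kinase of the photoreceptor cilium, stood at 63.4 and 56.5 against 20.55 and 17.9 CPM, and Grik3, a kainate receptor subunit, at 47.6 and 51.3 against 7.91 and 15.7 CPM. Without Prdm1 stood Nhlh2, a basic helix-loop-helix factor of young neurons, with 77.5 and 78.5 against 6.34 and 26.2 CPM, and Pou3f1, a POU domain factor, with 61.7 and 184 against 15.85 and 41.9 CPM. Prdm13, a factor of amacrine cells, had 29 UMIs in control members without and 1 in those with Prdm1, and 72 and 40 UMIs in Mettl3-CKO members.

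**Figure D3:**
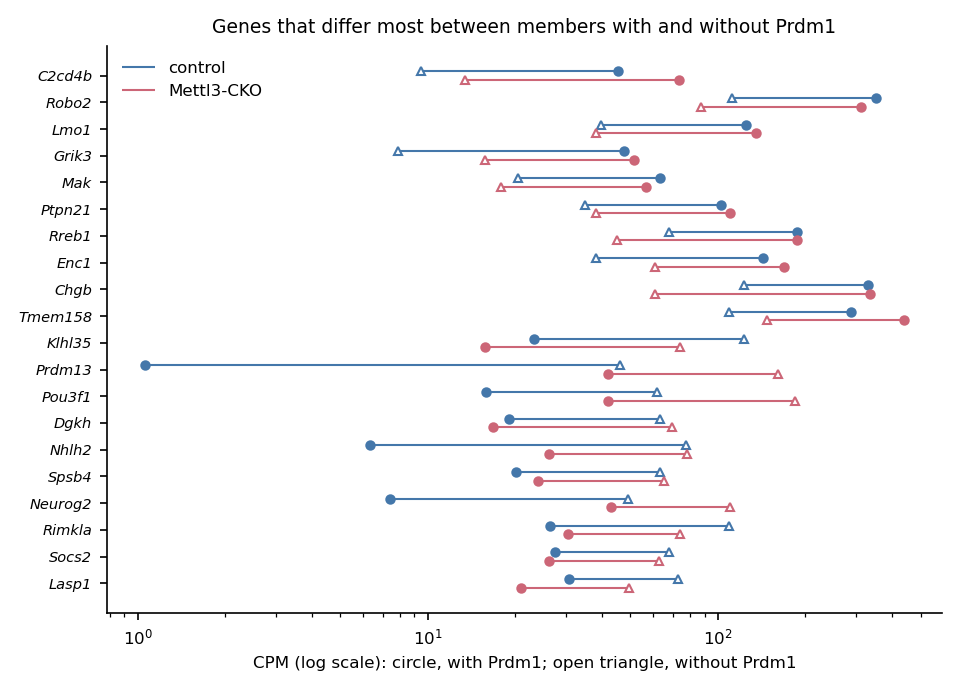
Levels in CPM (log scale) of the 20 genes that differed most, in both libraries, between members with a Prdm1 UMI (circles) and without one (open triangles); lines join the values of 1 library. Robo2 stands at 350 and 311 CPM with Prdm1 and at 112 and 87.5 without it.

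Between the genotypes, the level of Prdm1 (chromosome 10, 44437177 to 44528501) was higher in Mettl3-CKO members. Prdm1 had 404 control and 496 Mettl3-CKO UMIs, 256 (232 to 282) and 354 CPM (324 to 387), a log2 ratio of 0.47 (0.28 to 0.66). The ratio of the shares of members with Prdm1 was 1.16 (1.01 to 1.33). The difference in shares was not even across the library, with 58.5% (47.1 to 69.3%) in Mettl3-CKO cells without Xist, close to the 59.3% of control, and 74.6% (66.7 to 81.6%) in those with Xist. The log2 ratio of levels was 0.31 without and 0.55 with Xist, and after thinning, where the rule admits other cells, it was 0.21.

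Across all genes, 5119 had at least 100 UMIs over the members of both libraries and were compared. Of these, 141 (2.75%) were at least 1.5-fold higher and 111 (2.17%) at least 1.5-fold lower in Mettl3-CKO members, and the median log2 ratio was −0.03. With every cell thinned the counts were 81 and 82, and with only Mettl3-CKO cells without Xist 99 and 171.

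Cdkn1a, Slitrk6 and Cdc42ep4 led the 10 genes named for a higher ratio, which all had a UMI in at least 10% of members of a library. Several of the 10 were also higher in all other deep cells of the Mettl3-CKO library. Cdkn1a stood there at 18.0 and 99.8 CPM, Nxt1 at 45.8 and 91.1, Slitrk6 at 15.1 and 26.1, and Aen at 37.6 and 59.5. Dkc1, at 72.0 and 74.6 CPM, and Cib2, at 22.5 and 26.5, differed less in those cells. Cdkn1a (chromosome 17, 29090976 to 29100727), which encodes the cyclin-dependent kinase inhibitor p21 and is a target of p53, had 11 UMIs in 6 control members and 119 UMIs in 26 Mettl3-CKO members, 6.97 (3.48 to 12.5) and 84.9 CPM (70.4 to 101.6), a log2 ratio of 3.61 (2.72 to 4.65). The 3 cells with most held 22, 20 and 13 of the 119 UMIs, and without the highest cell of each library the ratio was 4.19. It was seen in 12.2% (6.01 to 21.3%) of Mettl3-CKO members without Xist and 11.3% (6.58 to 17.6%) of those with Xist, against 2.49% (0.919 to 5.34%) of control members. Microglia-like cells, which can make p21 themselves, had it in 10.0 and 24.3%. Aen, a nuclease induced by p53, had 50 and 101 UMIs in 41 and 65 cells, a log2 ratio of 1.19 (0.68 to 1.71). Slitrk6, a neuronal membrane protein of synapse and neurite formation, had 31 and 104 UMIs in 23 and 54 cells, 19.6 and 74.2 CPM, a log2 ratio of 1.92 (1.33 to 2.55). Dkc1, the pseudouridine synthase dyskerin, which lies on the X chromosome, was higher by 1.04 (0.59 to 1.51), and by 1.27 in cells without Xist. The others of the 10 named for size were Cdc42ep4, Cib2, Mt1, Lrrc4b, Zic2 and Nxt1, with log2 ratios from 0.99 to 1.27. After thinning, Cib2 and Zic2 were at 0.56 and 0.48, under the limit, and Mt1, a metallothionein, had ratios of 1.65 without and 0.76 with Xist.

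Of the 10 genes named for a lower ratio by the same rule, Nyap2, Trnp1 and Stmn4 had the lowest. These 3 were also lower in all other deep cells, at 22.8 and 6.71, 27.3 and 4.42, and 27.4 and 11.4 CPM. Pfkp stood there at 91.05 and 46.96 CPM. Tulp1, at 753 and 730 CPM, and Enox2, at 14.1 and 13.5 CPM, were nearly level in those cells. Mapt, the axonal microtubule protein tau, had 84 UMIs in 54 control and 28 UMIs in 23 Mettl3-CKO members, 53.2 and 19.99 CPM, a log2 ratio of −1.41 (−2.09 to −0.78). Stmn4, a stathmin that binds tubulin, had 99 and 29 UMIs in 49 and 23 cells, a ratio of −1.60 (−2.25 to −0.99). Nyap2, a neuronal adaptor of phosphoinositide 3-kinase, had 90 and 22 UMIs, a ratio of −1.86 (−2.60 to −1.18), with −1.40 without and −2.21 with Xist. Pfkp, a phosphofructokinase of glycolysis, had the widest base, with 217 UMIs in 104 control cells and 75 UMIs in 52 Mettl3-CKO cells, 138 and 53.5 CPM, and a ratio of −1.36 (−1.76 to −0.98). Trnp1, a nuclear protein of neural progenitors, had log2 ratios of −0.91 without and −2.48 with Xist. Crym, which binds thyroid hormone, had 322 and 98 UMIs, and 1 control cell held 70 of the 322. Its ratio was −1.54, with −0.79 without and −2.26 with Xist, and −0.74 after thinning. Tulp1, a transport protein of photoreceptors, had 79 and 24 UMIs, with 46 of the 79 in 2 control cells, and its ratio of −1.55 was −0.75 after thinning. Enox2, Cthrc1 and Rlbp1 had log2 ratios from −1.54 to −1.09, and that of Rlbp1 turned to 0.17 after thinning.

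The 20 genes, chosen on these same members, were also summed with and without Prdm1, which is a description and no independent check. With Prdm1, all 10 genes named as higher were higher, with a median log2 ratio of 1.08, and all 10 named as lower were lower, with a median of −1.80. Without Prdm1 the medians were 1.14 and −1.11, with the same signs, and the difference between the classes was not tested. Cdkn1a had 9 control and 65 Mettl3-CKO UMIs in members with Prdm1 and 2 and 54 UMIs in those without it. Stmn4 had log2 ratios of −1.72 with and −1.33 without Prdm1, Mapt −1.67 and −1.01, and Pfkp −1.44 and −1.15. Slitrk6 had ratios of 2.42 (1.61 to 3.32) and 1.03 (0.04 to 2.05), and whether they differ was not tested. Tulp1 without Prdm1 was at −0.74 (−2.14 to 0.52), an interval that included 0.

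**Figure D4:**
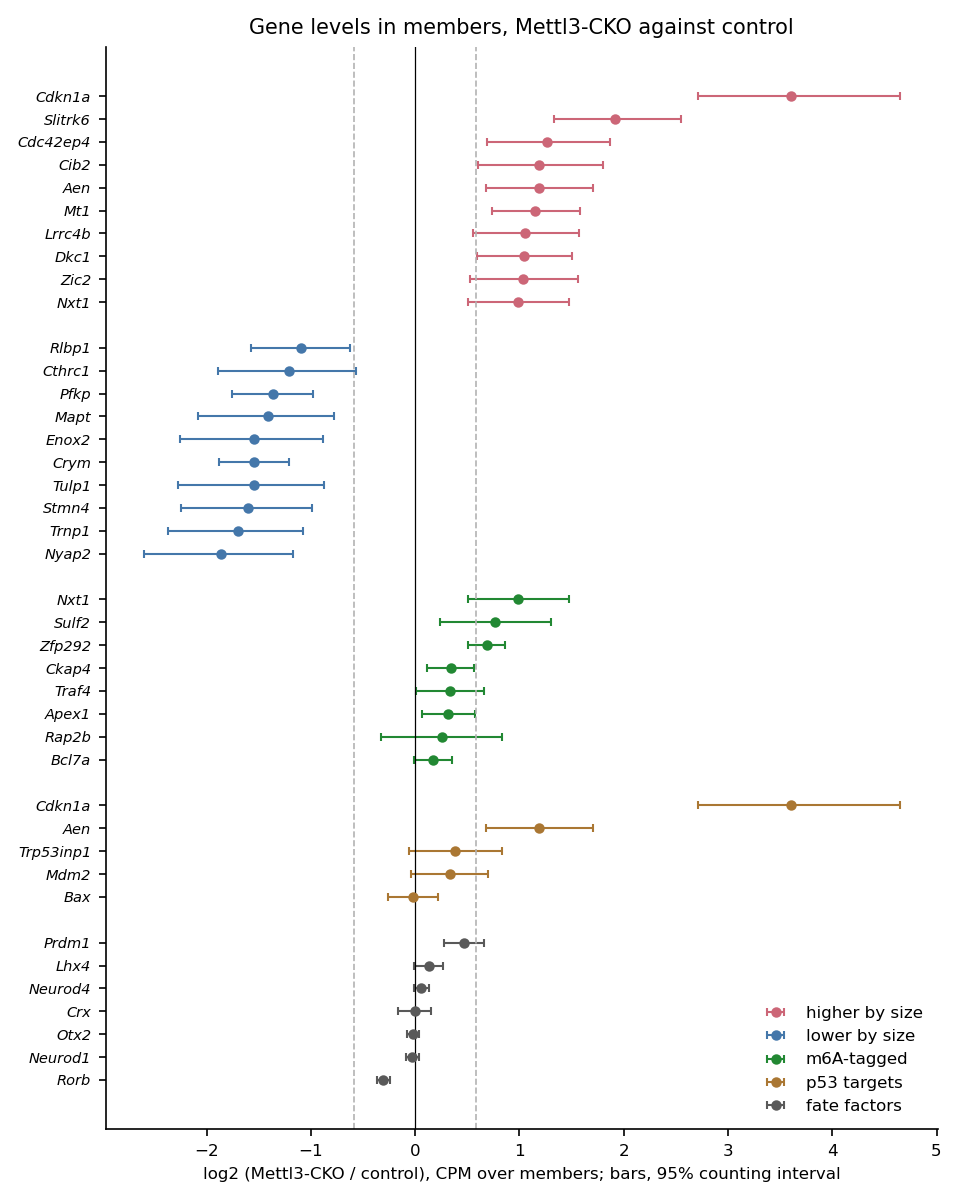
Log2 ratio of summed CPM in Mettl3-CKO over control members for the genes named for size, the m6A-tagged genes, the p53 targets compared and 7 fate factors, with 95% counting intervals from 1 library per group; dashed lines mark 1.5-fold. Cdkn1a lies at 3.61, Nyap2 at −1.86, all 8 m6A-tagged genes above 0, and Crx, Otx2 and Neurod1 near 0.

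By gene list, neuronal outgrowth genes were split. Of 12 genes of the neurite list, 11 were compared and 2, Stmn4 and Mapt, were past the 1.5-fold limit, both lower, with a list median of −0.14. Gap43, a growth cone protein, had a ratio of −0.55 (−0.92 to −0.18), Map1b, a microtubule protein of growing axons, one of 0.40 (0.26 to 0.53), and Tubb3 one of 0.11 (0.003 to 0.21). Of 9 photoreceptor fate genes, 7 were compared and none was past the limit (median −0.004). Among them Rorb, a nuclear receptor upstream of Nrl, had 3600 and 2918 CPM, a log2 ratio of −0.30 (−0.36 to −0.25). Of 13 neurogenic genes all were compared, and Neurog2 and Sox11 were past the limit, both higher. Neurog2, a proneural factor, had 38 and 90 UMIs in 22 cells of each library, and 3 Mettl3-CKO cells held 55 of the 90. Its ratio was 1.42, and 0.36, under the limit, when at least 3 Neurod4 UMIs were required. Sox11, a factor of newborn neurons, had a ratio of 0.82 over all members, −0.78 in Mettl3-CKO cells without Xist and 1.29 in those with Xist, so its direction differed between cells without and with Xist. Onecut2, the only horizontal cell gene compared, was at 222 and 370 CPM, a log2 ratio of 0.74 (0.54 to 0.94), with ratios of 0.55 and 0.83 without and with Xist.

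Genes of bipolar cells, progenitors and Müller glia were present in the members, but only the bipolar list stood above all other deep cells. It summed to 1217 and 925 CPM in members, against 442 and 352 CPM. The progenitor list summed to 2464 and 2343 CPM against 3869 and 4457 CPM. For the Müller glia list the sums were 1731 and 1530 CPM against 3184 and 2875 CPM. Of 14 bipolar genes 4 were compared, and Pcp4, a calmodulin-binding protein, was past the limit as higher. The Pcp4 UMIs came from 7 control and 16 Mettl3-CKO cells. Below the count minimum, Bhlhe23, a factor of rod bipolar cells, had 53 UMIs in 18 control members and 9 UMIs in 5 Mettl3-CKO members, 33.6 and 6.42 CPM, a log2 ratio of −2.39 (−3.59 to −1.35). In cells past the bipolar limit it had 105 and 10 UMIs, 83.7 and 14.5 CPM, in cells whose make-up differed between the libraries as given above. Ptf1a, which specifies amacrine and horizontal cells, had 10 UMIs in 6 control and 75 UMIs in 10 Mettl3-CKO members, 53 of the 75 in 3 cells, and its ratio was −2.69 without and 3.73 with Xist. Of 12 progenitor genes 10 were compared, and Hes5, a Notch effector, was past the limit as lower, although its ratio turned positive with marked doublets left out and after thinning. Of 8 Müller glia genes compared, Rlbp1 and Id3 were lower, with ratios of −1.09 and −0.91, each from fewer than 30 cells a library, and Rlbp1 was at 0.17 after thinning. None of the 10 dissociation response genes or 14 G2/M genes compared was past the limit, and of 9 S-phase genes Usp1 was, at 0.72 (0.24 to 1.21). Of 81 ribosomal protein genes 78 were compared and 75 were higher, by a median of 0.20, with none past the limit. Over all 5119 genes compared, 2291 were higher. Cone and rod effector genes that differed, such as Pde6h, Opn1sw and Rcvrn, took most of their control UMIs from 1 or 2 cells. Of 13 rod genes 3 were compared and none was past the limit, and of 11 cone genes 3 were compared and Pde6h was lower. No amacrine, ganglion or microglia gene reached the minimum, and Kdr, the vascular gene that did, had a ratio of 0.05.

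The 8 m6A-tagged genes were a list that the study chose on these same libraries, so their direction is not independent evidence. All 8 were higher in Mettl3-CKO members, with a median log2 ratio of 0.34 against −0.03 over all genes compared, and 3 of 8 were past the 1.5-fold limit. Of all 5119 genes compared, 2291 were higher. Zfp292 (chromosome 4, 34803113 to 34882960), a zinc finger factor, had 460 UMIs in 188 control and 657 UMIs in 178 Mettl3-CKO members, 291 and 469 CPM, a log2 ratio of 0.69 (0.51 to 0.86), and 0.51, under the limit, after thinning. Nxt1, a cofactor of mRNA export, had 36.7 and 72.8 CPM, a ratio of 0.99 (0.51 to 1.48), and Sulf2, an extracellular sulfatase, 51 and 77 UMIs, a ratio of 0.77 (0.24 to 1.31). Bcl7a, a subunit of chromatin remodelling complexes, had 486 UMIs in each library and the lowest ratio, 0.17 (−0.01 to 0.36). The list median was 0.35 in Mettl3-CKO cells without Xist and 0.41 in those with Xist. Within the members it was 0.39 with and 0.37 without Prdm1. The same genes had medians of 0.80 in cells past the neurogenic limit, 0.10 past the rod limit, 0.27 past the bipolar limit and 0.60 in all other deep cells. Members thus lay between their neurogenic and rod neighbours, a difference that was not tested.

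Cell by cell, the counts were higher in Mettl3-CKO members at the quartiles as well as at the upper end. With each member thinned to 3000 UMIs, the 8 genes gave a median of 3 UMIs per cell (0 to 9) in 207 control and 4 (0 to 12) in 203 Mettl3-CKO members. The lower and upper quartiles were 2 and 5 UMIs in control and 3 and 6 in Mettl3-CKO, with means of 3.63 and 4.51. Cells above the control 95th percentile of 7 UMIs were 6 (2.90%, 1.07 to 6.20%) in control and 23 (11.3%, 7.32 to 16.5%) in Mettl3-CKO, with 9.86% of cells without and 12.1% of cells with Xist. Unthinned, the list summed to 1150 and 1549 CPM.

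**Figure D5:**
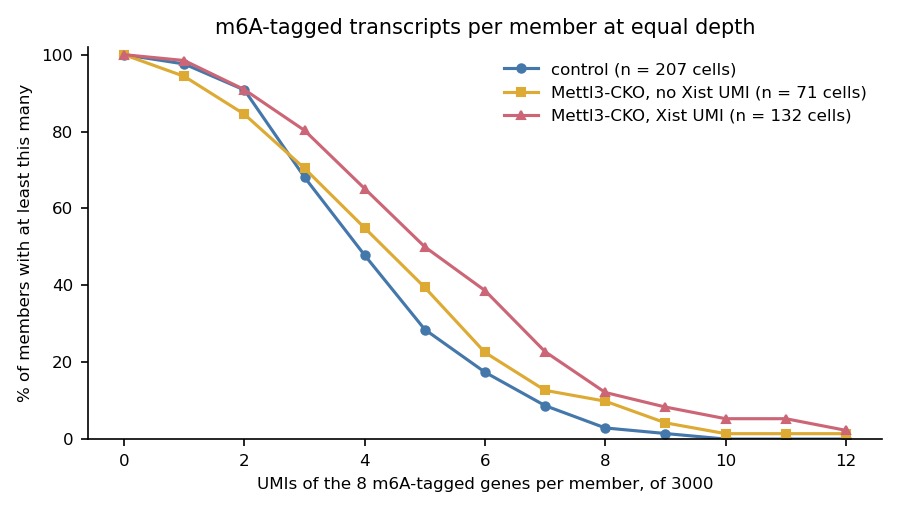
Share of members (%) with at least a given number of UMIs of the 8 m6A-tagged genes after each cell was thinned to 3000 UMIs, for control members and for Mettl3-CKO members without and with a Xist UMI. Above 7 UMIs lie 2.90% of control, 9.86% of Mettl3-CKO members without and 12.1% with Xist.

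Among the m6A machinery, 12 of 15 genes were compared, and only Rbm15, an adaptor of the writer complex, was past the limit, at 0.73 (0.26 to 1.20). Ythdc1, the nuclear reader, was at 215 and 298 CPM, a ratio of 0.47 (0.26 to 0.68), and the writer subunit Wtap at 0.23 (−0.11 to 0.57).

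Of 13 p53 targets, 5 reached the count minimum, and Cdkn1a and Aen were past the limit, both higher, with a median of 0.39 over the 5. Mdm2, the ligase that degrades p53, had a ratio of 0.33 (−0.04 to 0.70), and Bax, a pore-forming death protein, −0.02 (−0.26 to 0.22). Below the minimum, Phlda3, a p53-induced repressor of Akt, had 10 and 30 UMIs, a ratio of 1.76 (0.69 to 2.96). Cdkn1a was also higher in the neighbours of the Mettl3-CKO library, at 120 CPM past the neurogenic limit, 34.0 past the rod limit and 78.4 past the bipolar limit, where control cells had 0, 7.28 and 23.9 CPM.

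The Mettl3-CKO members with a Cdkn1a UMI carried more of both lists. In those 26 cells the m6A-tagged genes summed to 1943 CPM and the p53 targets other than Cdkn1a to 929 CPM, against 1483 and 476 CPM in the 198 members without it. Zfp292 was at 739 against 424 CPM and Phlda3 at 115 against 5.83 CPM. In control members, 6 with Cdkn1a had 1097 CPM and 235 without it 1152 CPM of the m6A-tagged genes. Median depth was 7139 UMIs with and 6083 without Cdkn1a in the Mettl3-CKO library. Of the 26 cells, 16 had a Prdm1 UMI, against 138 of the other 198. Depth moved with this split, and its part in the counts of cells was not tested.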

How the data were processed

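The data were droplet single-cell RNA sequencing of 1 control and 1 Mettl3-CKO library (10x 3′ chemistry). The deposited values are raw UMI counts per gene and cell, which the authors made with Cell Ranger 3.1.0 on mouse build mm10 (GRCm38) after trimming with fastp, per the labels and methods; the submitters' processing notes also name Seurat 3.1. Strand use in counting was not given in the sources used here, and 11 of 30 genes named for size overlap another gene, 2 of them on the same strand. The matrices as read ended early, so 3994 of 5995 control and 3109 of 6992 Mettl3-CKO barcodes were analysed; 237 and 86 of these cells lay outside the study's cell filter, and 5 barcodes were shared. The deep cells summed to 20633285 and 19733967 UMIs outside 13 mitochondrial genes, and members to 1578677 and 1401003.

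UMIs were summed over members per library and given as CPM with exact Poisson intervals, ratios with exact conditional binomial intervals, shares with Clopper-Pearson and share ratios with Katz log intervals (95%). A count of 0 was given the limit that 3 counts allow. Code was tested on simulated counts. Because each group was 1 library, no p-value was computed. Doublets were kept. The automatic limit of scrublet (scanpy 1.11.5) marked only 60 and 5 cells, so the 6% of cells with the highest scores were marked instead (7 control and 9 Mettl3-CKO members) and left out as an alternative. The rule by size took, from either end of the Mettl3-CKO to control ratio, 10 genes among those with at least 100 UMIs, a UMI in 10% of members of a library, and 1 direction under median-of-ratios scaling and in Mettl3-CKO cells with and without Xist, and the 10 genes highest over other cells. Genes of fixed lists were named as well. The split of members by Prdm1, and the genes named for it, were chosen after their values were seen. Some results are not reported here. The members, lists and rule were chosen with earlier results of these data known. Alternatives changed depth, the Neurod4 limit, doublets, Xist, scaling, minimum, fold, cell filter and thinning. Python 3.11.15, numpy 2.4.6, scipy 1.17.1 and pandas 2.3.3 were used.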

Additional observations from a re-analysis of the deposited data

Results flagged for a closer look

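Xist stood at 2110 CPM in Mettl3-CKO members and at 0 UMIs in control members, a signal outside the comparisons of the report. It was flagged because the control library lacked it. Of the 142 members with Xist, 5 also had a Y-linked UMI, and 23 Mettl3-CKO members had neither. The labels give no sex, and what sex contributed to the differences between the libraries was examined only by splitting the Mettl3-CKO cells, with values given beside several results.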

How the results depend on the processing

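No paired analysis was possible because each group was 1 library. Of the alternative values of the main results, 60 stayed the same, 9 moved and 1 changed direction. Leaving out a replicate was not possible with 1 library per group. The ratio of member shares ran from 1.06 to 1.26 over its alternatives and the m6A-tagged median from 0.34 to 0.46. With Mettl3-CKO cells without Xist, 171 genes were lower and the ratio of Prdm1 shares was 0.987. After thinning, 81 genes were higher. Counts of higher and lower genes were 367 and 298 at a minimum of 50 UMIs, 20 and 27 at 300 UMIs, and 23 and 18 at a fold limit of 2, where fewer or more genes could pass by construction. The p53 median was −0.022 at 300 UMIs, where only Bax remained. Median-of-ratios scaling gave 160 higher and 90 lower genes, 64.0% against 56.0% of genes past the limit being higher, and with Mettl3-CKO cells without Xist that share was 36.7%. Among single genes, 411 values stayed within the counting interval, 26 left it and 3 changed direction: Hes5 was at 0.25 with marked doublets left out and at 0.41 after thinning, and Rlbp1 at 0.17 after thinning, and the cause was not tested. The values without each gene's highest cell were added after the data were seen. Depth limits all genes under 100 UMIs, and 1 library per group limits every comparison.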
